A study of Mus musculus with 12 samples.

Results

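Pltp, Stab1, Olfm2, Serpinb1a, Crispld2, Lamc3, Abhd15, Timp1, Aqp3, and Fcrl1 are 10 genes of the 11077 listed for Th17 versus Th0 cells. Their mRNA was low in Th0 cells and many times higher in Th17 cells. They were chosen by exactly that pattern, selected on the FPKM (fragments per kilobase of exon, scaled to library size) of the same Th0 and Th17 libraries. Their difference between Th17 and Th0 cells is therefore described below and not tested. Mean levels in Th0 cells reached 1.81 FPKM (Aqp3), and those in Th17 cells went from 1.73 (Lamc3) to 133 FPKM (Aqp3). The study compared murine T helper cells in culture by RNA-seq, with 4 libraries each of Th0, Th17, and iTreg cells, 12 in all. Naïve CD4+CD62L+ T cells from spleens of C57BL/6 mice aged 8 to 10 weeks were activated in every group with plate-bound anti-CD3 and anti-CD28, each at 1 µg/ml, and RNA was taken after 72 h. Th0 cells received no polarizing cytokine. Th17 cells were also given IL6 (30 ng/ml), TGFb1 (5 ng/ml), and neutralizing anti-IL4 and anti-IFNγ (10 µg/ml each). iTreg cells were also given IL2 (10 ng/ml) and TGFb1, at 10 ng/ml by the sample labels and at 20 ng/ml by the published methods. RNA came from the whole culture, so cells that had not polarized are part of every Th17 and iTreg value, and more expressing cells cannot be told apart from more mRNA per cell.

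Naïve CD4+ T cells that are activated in the presence of IL6 and TGFb1 become Th17 cells, which secrete IL17A and IL17F. TGFb1 with IL2 instead favours Foxp3 and the induced regulatory (iTreg) fate, so TGFb1 is a signal that both cultures received and Th0 cells did not. Most of the 10 genes are better known from other tissues. Pltp, Timp1, Lamc3, Crispld2, and Olfm2 encode secreted proteins: a phospholipid transfer protein of plasma, an inhibitor of matrix metalloproteinases, a laminin γ chain of basement membranes, a cysteine-rich secretory protein, and an olfactomedin-domain glycoprotein. Stab1 (the scavenger receptor stabilin-1 of macrophages and endothelium), Aqp3 (a channel for water and glycerol), and Fcrl1 (an Fc receptor-like protein of B cells) encode membrane proteins. Serpinb1a encodes an intracellular inhibitor of neutrophil serine proteases, and Abhd15 an α/β hydrolase domain protein known from adipocytes.

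The upstream sequence of 4 members is shown because they differed in iTreg cells, whose libraries were not used in the choice: Aqp3, Stab1, and Fcrl1 were higher there than in the Th0 libraries in which they had been chosen to be low, while the Abhd15 levels overlapped with those of Th0 cells. Each line holds the 250 bases before the annotated start, 5′ to 3′ (RefSeq, GRCm38.p6). Capitals mark motifs that were searched on both strands.
Aqp3 (chr4:41098184-41098433, minus strand): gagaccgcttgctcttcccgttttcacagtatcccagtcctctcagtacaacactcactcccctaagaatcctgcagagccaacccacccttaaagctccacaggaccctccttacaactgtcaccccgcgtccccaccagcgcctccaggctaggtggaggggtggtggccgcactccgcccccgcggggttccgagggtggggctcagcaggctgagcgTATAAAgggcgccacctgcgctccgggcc
Stab1 (chr14:31168642-31168891, minus strand): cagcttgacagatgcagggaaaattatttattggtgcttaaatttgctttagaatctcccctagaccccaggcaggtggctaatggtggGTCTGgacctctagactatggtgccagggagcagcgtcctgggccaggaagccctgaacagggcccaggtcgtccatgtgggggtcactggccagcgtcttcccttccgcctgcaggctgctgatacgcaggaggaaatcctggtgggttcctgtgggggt
Fcrl1 (chr3:87376137-87376386, plus strand): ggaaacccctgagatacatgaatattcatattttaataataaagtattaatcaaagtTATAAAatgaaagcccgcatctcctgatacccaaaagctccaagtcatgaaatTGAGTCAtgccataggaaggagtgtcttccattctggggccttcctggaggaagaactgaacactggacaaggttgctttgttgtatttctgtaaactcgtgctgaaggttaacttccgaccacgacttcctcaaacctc
Abhd15 (chr11:77514867-77515116, plus strand): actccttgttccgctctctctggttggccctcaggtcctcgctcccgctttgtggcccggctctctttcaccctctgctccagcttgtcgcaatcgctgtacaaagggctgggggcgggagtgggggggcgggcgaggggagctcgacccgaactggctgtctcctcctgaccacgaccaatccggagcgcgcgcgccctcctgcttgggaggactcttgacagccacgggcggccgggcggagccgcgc

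RefSeq windows, reaching from 250 bases before to 50 bases after a start, were found for 8 of the 10 members. None was found for Serpinb1a and Lamc3, and Olfm2 had 3. The median GC content of the members' windows was 61%, against 52.7% over all windows (quartiles 45.7% and 61.7%). It was not measured over listed genes alone, so a higher GC content is not shown to be particular to the members. The motifs searched were an AP-1 site (TGANTCA), a STAT site (TTCNNNGAA), a nuclear receptor half-site (AGGTCA), the dioxin response core bound by the aryl hydrocarbon receptor (GCGTG), the SMAD box (GTCTG), and the TATA box (TATAAA). None of these letter strings is part of another. The TATA box letters occurred in 4 of 8 members (Pltp, Olfm2, Aqp3, and Fcrl1), in 13.6% of all 32851 windows, and in 7.94% of the 8448 listed genes with a window. In Aqp3 alone they lay at -29 from the start, the usual distance of a working TATA box, while they began at -193 in Fcrl1, at -1 in a window of Olfm2, and at 36 in Pltp, after the start. The AP-1 letters were present only in Fcrl1, at -140, in 7.81% of all windows, and in 5.59% of listed genes. The SMAD box, which is short, was present in 5 of 8 members, in 49.6% of all windows, and in 51.9% of listed genes. The dioxin response core was present in 3 of 8 members (Pltp, Crispld2, and Timp1) in 32.4% of all windows, and in 57.9% of listed genes. The half-site was present in Olfm2 alone, in 16.3% of all windows, and in 14.5% of listed genes. No member held the STAT letters, which occurred in 8.30% of all windows and in 8.45% of listed genes. Members and listed genes were counted per gene, with any of a gene's windows. The Abhd15 window held none of the 6 motifs. A match describes the letters only, and binding was not measured.

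The libraries held 7182208 to 10628620 reads on listed genes, recovered as whole numbers from the steps of the FPKM values. All 10 of 10 T cell markers were listed, with summed levels of 1351 to 2614 FPKM in Th0 and 1222 to 1975 FPKM in Th17 libraries. None of them was called higher and 2 were called lower in Th17 cells: Cd4 (208 to 68.1 FPKM, log2 fold change -1.54, adjusted p = 0.038 from limma) and Trat1, a T cell receptor adaptor (-2.31, adjusted p = 0.00059). Of 14 tested reference genes of Th17 cells, 12 were up-regulated in Th17 cells (limma on log2(FPKM + 1), Benjamini-Hochberg adjustment, FDR 0.05) and none was down-regulated. Only genes that passed a filter of more than 1 FPKM in at least 4 of 8 libraries were tested. Il17a, Il17f, Il21, Il23r, and Il1r1 were under 1 FPKM in every Th0 library and passed it through their Th17 libraries alone. They had to differ, so their calls add no support. Of dendritic cell markers 4 of 9 were listed, with sums of 5.11 to 8.45 FPKM in Th0 and 1.33 to 7.30 FPKM in Th17 libraries, and of CD8 T and NK cell markers 1 of 8 (Cd8b1). Across all tested genes 10.6% were called higher and 8.69% lower in Th17 cells. Libraries are named by their column headings, such as M22_5, which give the group by table and ending. The beginnings M22, M29, M42, and M43 recur in each group and what they mark is not stated.

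**Figure D1:**
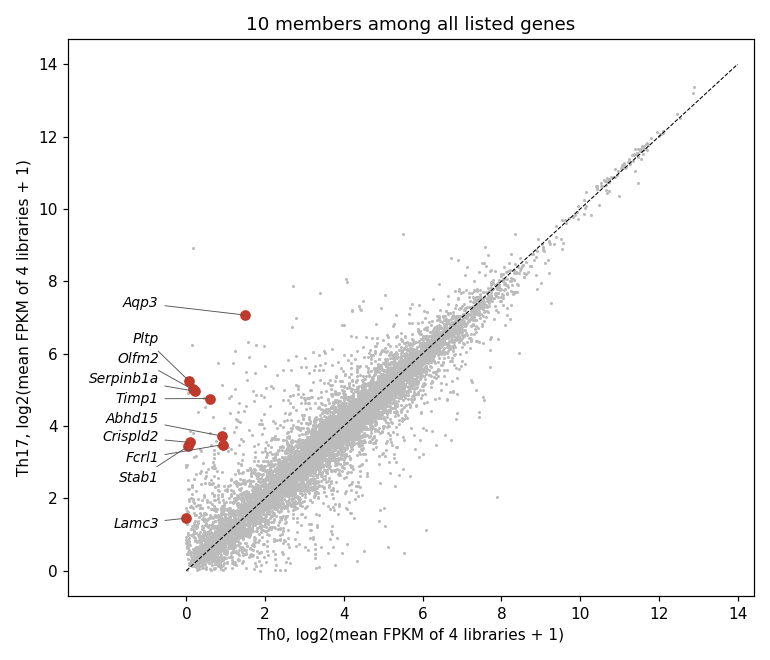
Mean expression of all 11077 listed genes in Th0 cells (horizontal) and Th17 cells (vertical), each as log2(mean FPKM of 4 libraries + 1), with the 10 members in red and the dashed line at equal levels. The members lie at the left edge, from Lamc3 (1.73 FPKM in Th17 cells) to Aqp3 (133 FPKM).

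In Th0 cells 9 of the 10 members had a mean under 1 FPKM, and in Th17 cells all 10 were above 1 FPKM in every library. Over all members, 314 reads were counted in the 4 Th0 libraries and 21889 in the 4 Th17 libraries. In each of the 10 genes the lowest Th17 library lay above the highest Th0 library, which the choice of members favoured and which held for 13.2% of all listed genes. Ranked by the difference of log2(FPKM + 1) among all 11077 genes, the members stood from place 3 (Aqp3) to place 271 (Lamc3). The least changed member was Lamc3 (difference 1.44), and the nearest genes outside, with Th0 means under that of Aqp3, were Ctxn1 and Map2k3os (1.43 each) and March3 (1.41), so no gap separates the members from other genes.

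Among the secreted proteins, Pltp had the highest mean in Th17 cells. The gene lies at chr2:164839518-164857711 (GRCm38, minus strand, GENCODE annotation, as for all positions here). Its mRNA was at 0.148, 0, 0, and 0.0593 FPKM in the Th0 libraries M22_1, M29_1, M42_1, and M43_1, which is 3 reads in all. In the Th17 libraries M22_5, M29_5, M42_5, and M43_5 it was at 43.6, 49.8, 34.0, and 19.1 FPKM. The groups were far apart, with M43_5 the lowest Th17 library. The mean rose from 0.0518 ± 0.0699 to 36.7 ± 13.4 FPKM (SD, n = 4), a ratio of 708 that rests on those 3 Th0 reads. Of the exonic bases of Pltp, 19.3% are shared with exons of Ctsa on the other strand, and reads were counted without regard to strand. Ctsa, which encodes cathepsin A, was at 26.5 ± 11.1 FPKM in Th0 and 65.8 ± 29.1 FPKM in Th17 cells (SD, n = 4). It was not called in the unpaired fit (log2 fold change 1.26, adjusted p = 0.077 from limma). In the same order of libraries, Ctsa was at 32.3, 37.5, 12.1, and 24.0 FPKM in Th0 cells. In Th17 cells it was at 92.0, 85.2, 28.2, and 57.8 FPKM. Ctsa was thus higher in Th17 cells under each heading beginning, and a change within the beginnings was not tested.

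Olfm2 (chr9:20667690-20746349, minus strand) was at 0.175, 0, 0.142, and 0.140 FPKM in the Th0 libraries. In the Th17 libraries it was at 53.0, 28.9, 21.9, and 20.9 FPKM. A single library, M22_5, stood above 30 FPKM while the other 3 lay close together. The mean in Th17 cells was 31.2 ± 15.0 FPKM (SD, n = 4), 273 times the Th0 mean of 0.114 FPKM. No exonic base of Olfm2 is shared with another annotated gene. No other gene of the olfactomedin list had a row in either table.

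Crispld2 (chr8:119992438-120052793, plus strand) was at 0.0965, 0.184, 0, and 0 FPKM in Th0 libraries, 9 reads in all. In the Th17 libraries it was at 20.3, 7.53, 4.04, and 10.7 FPKM. The lowest, M42_5, still held 147 reads, against at most 6 in a Th0 library. The means were 0.0702 ± 0.0886 and 10.6 ± 7.01 FPKM (SD, n = 4), a ratio of 152. Of the other genes of the CAP superfamily, 2 were tested. Glipr1 was down-regulated in Th17 cells (log2 fold change -2.32, adjusted p = 0.00023 from limma) and Glipr2 was not called (0.59, adjusted p = 0.27).

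Timp1 (chrX:20870166-20874735, plus strand) varied more between Th17 cultures than any other member. It was at 0.450, 1.14, 0.121, and 0.361 FPKM in the Th0 libraries, which is 3, 8, 1, and 3 reads. In the Th17 libraries it was at 12.5, 5.36, 37.2, and 49.0 FPKM. The highest Th17 library, M43_5, was 9.14 times the lowest, M29_5, and M29_1 was also the Th0 library with the most Timp1. The means were 0.519 ± 0.439 and 26.0 ± 20.5 FPKM (SD, n = 4), a ratio of 50.1. Timp1 lies inside Syn1, the synapsin I gene, on the opposite strand, with no shared exonic base in the annotation used here. Syn1 was also higher in Th17 cells, from 0.274 to 5.49 FPKM (log2 fold change 2.19, adjusted p = 0.0020 from limma), with 3.97, 2.20, 10.5, and 5.25 FPKM in the Th17 libraries. Syn1 was under 1 FPKM in every Th0 library and passed the filter through its Th17 libraries alone. It thus had to differ, and its call adds no support. The counting ignored strand and its gene annotation is not stated, so reads of the 2 genes may not be fully separated. Of 10 other tested metalloproteinases and inhibitors, 5 were up-regulated and 1 was down-regulated in Th17 cells. Of all tested genes 10.6% were called higher and 8.69% lower. Adam12, among the 5, was under 1 FPKM in every Th0 library and passed the filter through its Th17 libraries alone, so it had to differ. The median log2 fold change of the 10 genes was 0.66, where that of all tested genes was near 0. Listed but not tested were Reck, Mmp15, Adam8, and Mmp17 (differences 0.36, 0.23, -0.04, and -0.22). The up-regulated genes included Timp2, another inhibitor (21.9 to 58.6 FPKM, log2 fold change 1.43, adjusted p = 0.0098), and the membrane-bound protease Adam19 (1.87 to 44.3 FPKM, log2 fold change 4.0, adjusted p = 4.9e-05). The protease Adamts6 was down-regulated (log2 fold change -1.17, adjusted p = 0.010). In iTreg cells 3 of 9 tested genes of this list were up-regulated and none was down-regulated, where 8.36% of all tested genes were called higher.

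Lamc3 (chr2:31887291-31946539, plus strand, with 6.27% of its exonic bases shared with Gm13441) had no read in any Th0 library. With a floor of 3 reads over the group, its Th0 level was at most 0.0149 FPKM. In the Th17 libraries it was at 2.11, 1.33, 2.04, and 1.44 FPKM, which is 102, 76, 106, and 77 reads. Lamc3 was thus the lowest of the 10 genes in Th17 cells and among the steadiest, with 1.58 times between the highest and lowest library. The mean of 1.73 ± 0.400 FPKM (SD, n = 4) was at least 116-fold higher than in Th0 cells. Lamc1, the common laminin γ chain and the only other laminin tested, was at 1.58 ± 0.707 and 4.26 ± 2.08 FPKM (SD, n = 4) and was not called (log2 fold change 0.97, adjusted p = 0.067 from limma).

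Of the membrane proteins, Aqp3 (chr4:41092722-41098183, minus strand) reached the highest level. In Th0 libraries it was at 2.65, 2.17, 0.981, and 1.46 FPKM, a low but measurable level of 16 to 35 reads. In Th17 libraries it was at 207, 118, 70.7, and 136 FPKM, with 1093 to 2977 reads. M42_5 was the lowest Th17 library and M42_1 the lowest Th0 library, and the groups were far apart. The means were 1.81 ± 0.740 and 133 ± 56.5 FPKM (SD, n = 4), a ratio of 73.2, and in Th17 cells Aqp3 lay above 96.2% of all listed genes. No other aquaporin had a row in either table.

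Stab1 (chr14:31139013-31168641, minus strand) held 2 reads in each of the 4 Th0 libraries, 0.0334, 0.0319, 0.0270, and 0.0268 FPKM, for which the exact Poisson 95% interval is 0.242 to 7.22 reads and covers counting error only. In Th17 libraries it was at 10.7, 4.91, 13.8, and 9.88 FPKM, with 378 to 967 reads. M29_5 was the lowest and the other 3 lay within 9.88 to 13.8 FPKM. The means were 0.0298 ± 0.00336 and 9.81 ± 3.68 FPKM (SD, n = 4), a ratio of 329. Stab1 is known from macrophages, and macrophage markers are given beside it. Of 12 macrophage and monocyte markers 2 were listed, with summed levels of 3.34 to 5.03 FPKM in Th0 and 5.58 to 16.5 FPKM in Th17 libraries. Cd68, a lysosomal protein, went from 4.06 to 8.91 FPKM and was not called in the unpaired fit (log2 fold change 0.88, adjusted p = 0.055 from limma). Under each heading beginning Cd68 was higher in the Th17 than in the Th0 library, and a change within the beginnings was not tested. Itgam, the integrin chain CD11b, went from 0.131 to 0.394 FPKM, too low to be tested. The highest sum, 16.5 FPKM, was in M22_5, while Stab1 was highest in M42_5, where the sum was lowest among Th17 libraries. In iTreg cells Cd68 was at 4.65 FPKM, against 4.01 FPKM in Th0 cells (log2 fold change 0.12, adjusted p = 0.79 from limma). The part of macrophages in the Stab1 level was not tested. Of the endothelial and stromal markers only Pecam1 was listed, and it was down-regulated in Th17 cells (17.5 to 6.49 FPKM, log2 fold change -1.34, adjusted p = 0.012).

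Fcrl1 (chr3:87376387-87402934, plus strand) was low but measurable in Th0 cells, at 0.850, 0.312, 0.529, and 1.99 FPKM. In Th17 libraries it was at 12.4, 10.6, 10.7, and 7.13 FPKM. These Th17 values had the lowest coefficient of variation of the 10 genes (21.7%), with M43_5 the lowest library. The means were 0.921 ± 0.748 and 10.2 ± 2.22 FPKM (SD, n = 4), a ratio of 11.1. Of 12 B cell markers only Cd79a, a chain of the B cell receptor complex, was listed, at 0.646 to 3.84 FPKM in Th0 and 0.586 to 2.49 FPKM in Th17 libraries (log2 fold change -0.29, adjusted p = 0.65 from limma). Its mean was 1.83 FPKM in Th0 and 1.21 FPKM in Th17 cells. Within the Th17 group Cd79a was highest in M22_5, as was Fcrl1. Among Th0 libraries Cd79a was highest in M29_1, where Fcrl1 was lowest, and lowest in M43_1, where Fcrl1 was highest. Among iTreg libraries Cd79a was highest in M22_4 and Fcrl1 in M29_4. The part of B cells in the Fcrl1 level was not tested. No other Fc receptor-like or Fc receptor gene of the list had a row in either table.

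The intracellular members were Serpinb1a and Abhd15. Serpinb1a (chr13:32842092-32851185, minus strand) was at 0.0696, 0.332, 0.0564, and 0.168 FPKM in Th0 libraries, 1, 5, 1, and 3 reads. In Th17 libraries it was at 19.6, 11.1, 37.8, and 51.9 FPKM. As with Timp1, M43_5 was the highest, M42_5 followed, and M29_5 was the lowest. The means were 0.156 ± 0.127 and 30.1 ± 18.3 FPKM (SD, n = 4), a ratio of 193. Mice carry close copies of this gene, Serpinb1b and Serpinb1c, and how reads that match several copies were assigned is not stated, so the level carries that uncertainty. Of the 4 other tested genes of its list, clade B serpins and granule proteases, 3 were down-regulated in Th17 cells and none was up-regulated, and Serpinb6a was at 8.86 and 9.87 FPKM (log2 fold change 0.07, adjusted p = 0.90 from limma). The 3 genes were granzyme B (Gzmb, log2 fold change -3.05, adjusted p = 0.0010 from limma), Serpinb6b (-1.85, adjusted p = 0.021), and its relative Serpinb9, an inhibitor of granzyme B (-1.34, adjusted p = 0.00021). All 3 were under 1 FPKM in every Th17 library and passed the filter through their Th0 libraries alone, so they had to differ. Of all tested genes 8.69% were called lower. In iTreg cells 1 of the 4 (Serpinb6a) was up-regulated and 2 (Gzmb and Serpinb9) were down-regulated. Gzmb passed the filter through its Th0 libraries alone there too.

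Abhd15 (chr11:77515121-77538607, plus strand) was at 0.740, 1.65, 0.299, and 0.758 FPKM in Th0 libraries and at 21.0, 13.7, 5.37, and 8.72 FPKM in Th17 libraries. The Th17 libraries differed 3.90-fold between M22_5 and M42_5, and the lowest of them lay well above M29_1, the highest Th0 library. The means were 0.861 ± 0.565 and 12.2 ± 6.78 FPKM (SD, n = 4), a ratio of 14.2. Of the exonic bases of Abhd15, 43% are shared with Trp53i13, Taok1, and Gm10392, the largest share among the members, so its level is uncertain where strand was not used. Trp53i13 was up-regulated too, from 7.45 to 23.9 FPKM (log2 fold change 1.52, adjusted p = 0.0044 from limma), with 32.8, 28.0, 14.2, and 20.6 FPKM in the Th17 libraries, the same order of libraries as Abhd15. Taok1 was at 6.64 and 7.68 FPKM and was not called (0.18, adjusted p = 0.33). Of 15 other tested α/β hydrolase domain genes 3 were up-regulated and 1 was down-regulated, and Abhd12, a lysophosphatidylserine lipase, changed most (23.4 to 59.0 FPKM, log2 fold change 1.24, adjusted p = 0.0053). The median log2 fold change of these 15 genes was 0.20, and 10.6% of all tested genes were called higher.

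**Figure D2:**
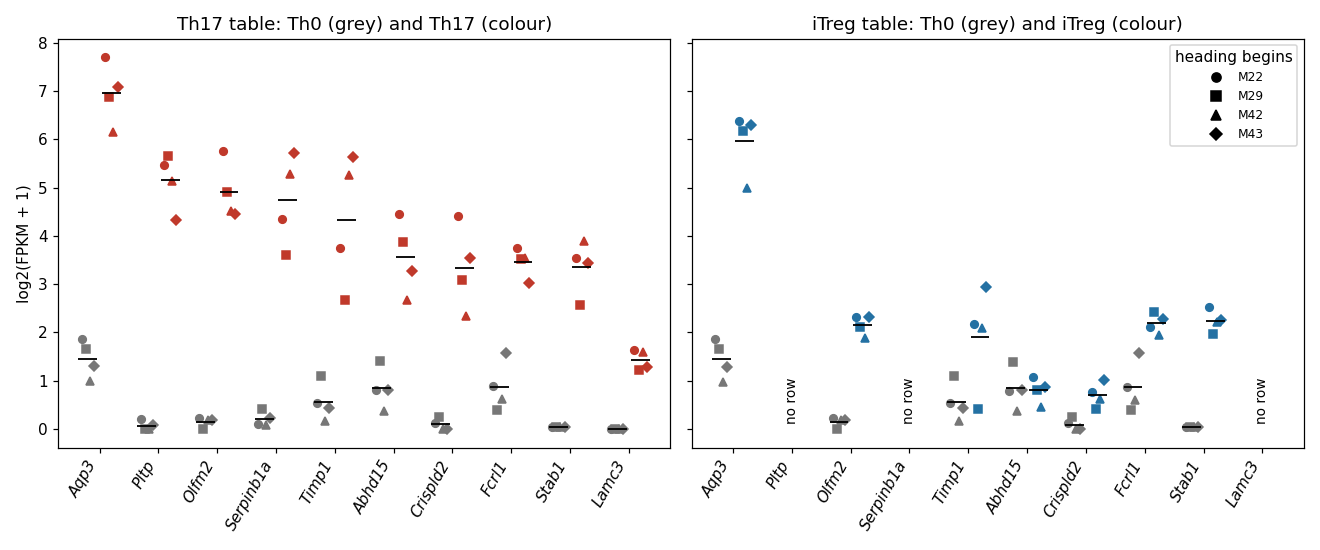
Expression of the members in each library as log2(FPKM + 1), with Th0 libraries in grey, Th17 libraries in red (left), and iTreg libraries in blue (right). Black bars are group means of 4 libraries, symbols mark the beginning of the column heading, and the 3 genes marked "no row" were not listed in the iTreg table. Red and grey points do not overlap for any gene, and blue and grey points overlap for Timp1 and Abhd15.

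In Th17 cells the order of the mean levels was Aqp3, Pltp, Olfm2, Serpinb1a, Timp1, Abhd15, Crispld2, Fcrl1, Stab1, and Lamc3. Only the steps from Aqp3 to Pltp and from Stab1 to Lamc3 separated neighbours whose libraries did not overlap, so neighbours among the 8 genes between were not resolved by these cultures. Genes farther apart in the order could be, as every Th17 library of Olfm2 lay above every Th17 library of Crispld2, Fcrl1, and Stab1. The members varied between Th17 libraries by a coefficient of variation of 21.7% to 78.8% (median 45.3%). For comparison, the 9241 listed genes with Th17 means in the same range had a median of 16.3% with quartiles of 10.3% and 26.0%. Of the members, 8 of 10 lay above the upper quartile. These 9241 genes were not limited to low Th0 levels, so the larger spread is not shown to be particular to the members. Other genes low in Th0 and high in Th17 cells also varied between Th17 libraries. Means and SD were 482 ± 222 FPKM for Il17f, 52.0 ± 21.2 FPKM for Tox2, and 52.5 ± 17.4 FPKM for Fam129b. The relative spread was smaller for Il21 (74.1 ± 13.5 FPKM) and Ahr (66.7 ± 11.8 FPKM). The libraries did not rank alike for all members. M22_5 was the highest Th17 library for 6 of them (Olfm2, Crispld2, Lamc3, Abhd15, Aqp3, and Fcrl1), M43_5 for Serpinb1a and Timp1, M29_5 for Pltp, and M42_5 for Stab1.

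**Figure D3:**
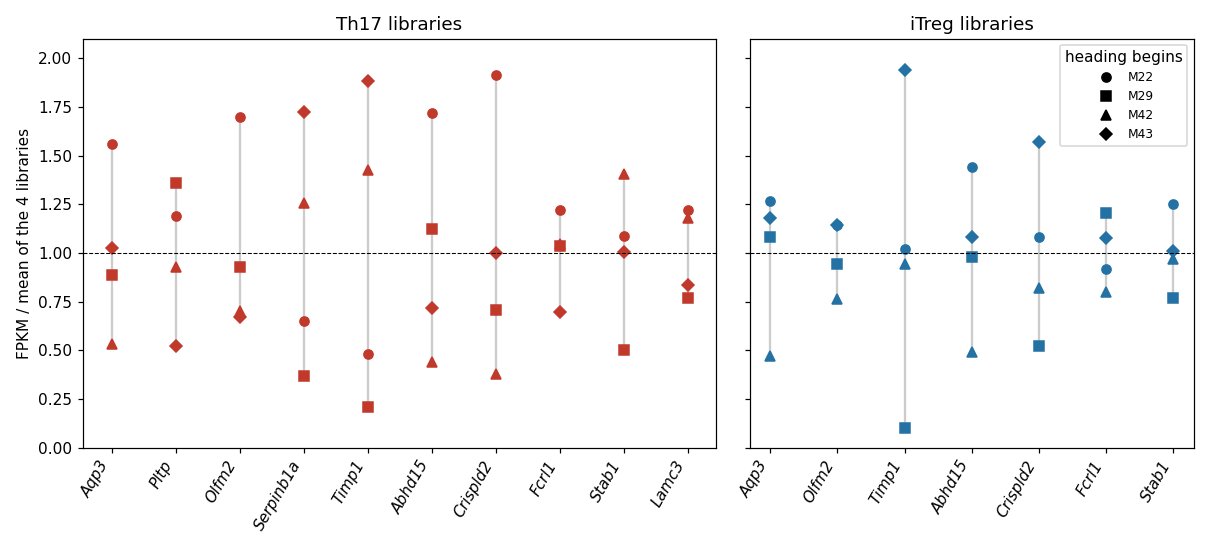
Each member's FPKM in the 4 Th17 libraries (left) and the 4 iTreg libraries (right), divided by the mean of those 4 libraries, with grey lines from lowest to highest and the dashed line at the mean. Timp1 spans the widest range in both groups and Fcrl1 and Lamc3 the narrowest in Th17 cells.

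The iTreg libraries took no part in choosing the members and received TGFb1 as Th17 cells did, but the Th0 libraries they were compared with are the ones in which the members were chosen to be low, which favours higher values in iTreg cells. Of the 10 members 7 had a row in the iTreg table, and Pltp, Serpinb1a, and Lamc3 were not analysed there. In 5 of the 7 (Stab1, Olfm2, Crispld2, Aqp3, and Fcrl1) every iTreg library lay above every Th0 library, against 11.8% of all listed genes. The same held for 71 of the 90 other genes with a row there whose Th0 mean and Th17 difference lay within the limits of the members, so the count is not particular to the members. By limma 8.36% of all tested genes were called higher and 8.21% lower in iTreg cells. Stab1, Olfm2, Aqp3, and Fcrl1 were called higher, which is not read against these shares: Stab1 and Olfm2 passed the filter of more than 1 FPKM in at least 4 libraries through their iTreg libraries alone and so had to differ, and Fcrl1 had a single Th0 library above 1 FPKM. Timp1 passed the filter and was not called. The same call was made without the filter for the 4 genes, but against the same Th0 libraries, so it adds no separate support.

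Aqp3 was again the most expressed, at 83.0, 70.9, 30.9, and 77.3 FPKM in the iTreg libraries M22_4, M29_4, M42_4, and M43_4. M42_4 was the low library, as M42_5 was in Th17 cells. The mean was 65.5 ± 23.6 FPKM (SD, n = 4) against 1.79 in Th0 cells, and the log2 fold change was 4.52 (SE 0.32, adjusted p = 5.6e-05 from limma). Stab1 was at 4.73, 2.90, 3.65, and 3.82 FPKM in iTreg libraries, a mean of 3.77 ± 0.753 FPKM (SD, n = 4) and a log2 fold change of 2.20 (SE 0.12, adjusted p = 1.8e-05 from limma). Olfm2 was at 4.02, 3.32, 2.69, and 4.03 FPKM, a mean of 3.52 ± 0.643 FPKM (SD, n = 4) and a log2 fold change of 2.01 (SE 0.12, adjusted p = 2.8e-05). The iTreg values of both genes were tight, and no library came near the Th0 range. Fcrl1 was at 3.32, 4.36, 2.88, and 3.88 FPKM, against 0.309 to 1.97 FPKM in Th0 libraries, with a log2 fold change of 1.33 (SE 0.24, adjusted p = 0.0065).

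Crispld2 stayed at a low level. It was at 0.706, 0.341, 0.535, and 1.02 FPKM in iTreg libraries, 14 to 38 reads each, and at 0 to 0.182 FPKM in Th0 libraries. The groups did not overlap, which the listing had fixed, so the adjusted p-values given here add no separate support. The gene did not pass the filter. Without the filter its difference of 0.61 on the log2(FPKM + 1) scale had an adjusted p of 0.017 from limma, and on log2 CPM of the recovered reads the difference was 3.77 (adjusted p = 0.026).

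Timp1 differed between iTreg cultures as it did between Th17 cultures, at 3.50, 0.341, 3.24, and 6.65 FPKM. M29_4 lay inside the Th0 range of 0.120 to 1.13 FPKM and held 3 reads. The log2 fold change of 1.35 (95% confidence interval 0.27 to 2.43) was not called (adjusted p = 0.092 from limma). Without M29_4 it was 1.84 with an adjusted p of 0.0044, and the adjusted p ranged from 0.0044 to 0.19 over the 8 fits that left out a library. In both tables the library beginning with M29 was the lowest and the one beginning with M43 the highest for Timp1.

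Abhd15 was at 1.10, 0.748, 0.376, and 0.825 FPKM in iTreg libraries and at 0.731, 1.63, 0.296, and 0.749 FPKM in Th0 libraries. The groups overlapped fully. The difference was -0.04 on the log2(FPKM + 1) scale and the gene did not pass the filter. Without the filter its adjusted p was 0.93 from limma. Trp53i13, which shares exons with it, was at 7.37 FPKM in Th0 and 8.05 FPKM in iTreg cells (log2 fold change 0.12, adjusted p = 0.74).

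No test was made between Th17 and iTreg cells, because the tables were scaled separately and share the Th0 libraries, whose values are 0.886% to 1.21% higher in the Th17 table. Side by side, the mean of Aqp3 was 133 FPKM in Th17 and 65.5 FPKM in iTreg cells, that of Stab1 was 9.81 and 3.77 FPKM, and that of Fcrl1 was 10.2 and 3.61 FPKM. For Olfm2 the means were 31.2 and 3.52 FPKM, and for Timp1 26.0 and 3.43 FPKM. For Abhd15 and Crispld2 they were 12.2 and 0.762 FPKM, and 10.6 and 0.651 FPKM. Of the iTreg values, those of Olfm2, Crispld2, Abhd15, and Fcrl1 lay below every Th17 library of the same gene, and those of Stab1 did so too, while Timp1 and Aqp3 had iTreg libraries within the Th17 range.

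Within 100 kb of the 10 genes, 44 others were listed and 40 tested in Th17 versus Th0 cells. Of these neighbours 6 were up-regulated and none was down-regulated, with a median log2 fold change of 0.19. This is 15% of the neighbours, near the 10.6% of all tested genes called higher. Of the 6, Syn1 passed the filter through its Th17 libraries alone and so had to differ. Besides Syn1 and Trp53i13, which overlap members, these were Ssh2 near Abhd15 (54.9 kb away, 17.1 to 61.7 FPKM, log2 fold change 1.79, adjusted p = 4.9e-05 from limma), Elk1 near Timp1 (58.7 kb away, 0.79, adjusted p = 0.0075), Nisch near Stab1 (2.29 kb away, 0.59, adjusted p = 0.026), and Zswim1 near Pltp (12.6 kb away, 0.40, adjusted p = 0.035). Lipid transfer and liver X receptor target genes, the group to which Pltp belongs, had no call in either direction among 9 tested in Th17 cells, with a median log2 fold change of 0.35. Abca1 (0.0817 to 0.984 FPKM) and Nr1h3 (0.617 to 0.404 FPKM) did not pass the filter and were not tested. In that list 1 gene was called in iTreg cells, the sterol exporter Abcg1 (log2 fold change 1.09, adjusted p = 0.019 from limma). Not tested in iTreg cells were Abca1 (0.0808 to 1.70 FPKM), Scd1 (0.161 to 2.07 FPKM), and Nr1h3 (0.610 to 0.370 FPKM). Of the scavenger receptors other than Stab1 2 were tested and none was called in either comparison. Not tested in iTreg cells were Cd36 (0.0400 to 2.13 FPKM), Olr1 (0.248 to 0.329 FPKM), and Colec12 (0.414 to 0.410 FPKM). Colec12 (0.418 to 0.428 FPKM) and Cd5l (0.0397 to 0.884 FPKM) were not tested in Th17 cells.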

How the data were processed

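RNA-seq of 12 libraries (paired reads of 100 nt, 4 per group, from independent cultures) was used. The authors aligned reads with TopHat 2.0.14 to mm10 and counted them on exons with HTSeq-count (union mode, no strand). They removed genes without more than 1 CPM in at least 4 samples and tested with edgeR in a pair-wise design. They deposited 2 tables of FPKM values, scaled separately, with log2 fold changes, log2 CPM, likelihood ratios, p-values, and FDR of their comparisons, which were not used.

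Genes above 1 FPKM in at least 4 of 8 libraries were tested on log2(FPKM + 1), which understates changes of low genes, with limma 3.58.1 in R 4.3.3, unpaired, with Benjamini-Hochberg adjustment over all of them at an FDR of 0.05. Whole reads were recovered for 99.99% of genes, to within 0.001 of a read, with Python 3.11.15, numpy 2.4.6, and pandas 2.3.3, and gave 7182208 to 10628620 reads per library. Intervals and floors cover counting error only. The fit was tested on simulated data. The members and the gene lists were chosen with earlier results of these data known. The text names all members, the largest changes of each list, listed markers of other cell types, up to 5 similar genes, and neighbours within 100 kb. Alternatives were another pseudocount, no filter, limma-trend, an FDR of 0.01, leaving out each library, and, chosen after seeing the data, limma-trend on log2 CPM of the recovered reads. The limma fit to recovered reads used 0.5 added reads. It called 2130 genes in Th17 and 1920 in iTreg cells.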

Additional observations from a re-analysis of the deposited data

How the results depend on the processing

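No paired analysis was possible because the column headings carry no experiment number, so differences between experiments count as spread. A fit with the beginnings of the headings as blocks was not made, since what they mark is not stated. The authors' own test was pair-wise. A gene not called in the unpaired fit is therefore not shown to be unchanged. In Th17 versus Th0 cells 1983 genes were called (1091 higher, 892 lower), and 995 at an FDR of 0.01. In iTreg versus Th0 cells 1691 were called (853 higher, 838 lower), and 778 at an FDR of 0.01. Leaving out one library gave 1384 to 2271 and 1155 to 1569 calls. Without M42_5, 1132 genes were higher and 1139 lower in Th17 cells. With one library left out the filter asked for 3 libraries, since 4 would have dropped genes silent in Th0 cells. The calls of Stab1, Olfm2, Aqp3, and Fcrl1 in iTreg cells held in all 8 such fits, with another pseudocount, without the filter, with limma-trend, and on recovered reads. These fits drew on the Th0 libraries in which the members were chosen to be low, so they add no separate support. Timp1 was called in iTreg cells only without M29_4, with a difference of 1.00 to 1.84 over the 8 fits. The number of members without overlap in iTreg cells was 5 to 6 when a library was left out, 6 without M29_4. For Stab1, Olfm2, and Crispld2 the lack of overlap over all libraries was fixed by the listing. Differences of members depend on the pseudocount, and at 0.1 that of Pltp was 7.94 in place of 5.08 and that of Lamc3 4.17 in place of 1.44. No difference called in a member changed direction under any of these settings. Levels under about 10 reads, as for 6 members over all Th0 libraries, fix a ratio only loosely.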

Other observations

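The limits spanned by the members, a Th0 mean of at most 1.81 FPKM and a difference of at least 1.44 on the log2(FPKM + 1) scale, also held 111 other genes. The 5 with the largest difference were Il17f (0.124 to 482 FPKM, difference 8.64), the cytokine gene Il21 (0.109 to 74.1 FPKM, 6.07), Tox2, a nuclear HMG-box factor (0.742 to 52.0 FPKM, 4.87), Ahr, the aryl hydrocarbon receptor (1.36 to 66.7 FPKM, 4.86), and Fam129b (1.28 to 52.5 FPKM, 4.51). In iTreg cells their levels spread widely, with Fam129b at 64.3 FPKM, Il17f at 57.6 FPKM, Ahr at 9.52 FPKM, and Tox2 at 0.839 FPKM, while Il21 was not analysed there. Cd5l, a secreted scavenger receptor cysteine-rich protein known from macrophages, lies 5.31 kb from Fcrl1 and was at 0.0397 FPKM in Th0 and 0.884 FPKM in Th17 cells, too low to be tested.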
